A study of Mus musculus with 18 samples.

Results

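An siRNA against transthyretin (Ttr) and a REVERSIR oligonucleotide directed at that siRNA were given to mouse hepatocytes separately, together or not at all, which makes a factorial of 4 groups with 3 RNA-seq libraries each. These 12 of the 18 libraries in the series were chosen by their treatment labels, with no measured value. The groups were siRNA + TTR REVERSIR, TTR REVERSIR, siRNA, and PBS, the vehicle control. The other 6 libraries, 3 with a scrambled REVERSIR and the siRNA and 3 with a scrambled REVERSIR alone, served here as a control factorial and helped to estimate the spread. All cells were plateable cryopreserved hepatocytes from male CD-1 mice, an outbred stock. The labels give no age, dose or exposure time, and they do not say whether replicates were separate cultures or separate lots of cells. P-values therefore measure the spread between these libraries, which may be technical.

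Transthyretin is made and secreted by hepatocytes and carries thyroxine and, bound to retinol-binding protein, retinol in blood. The guide strand of an siRNA is loaded into an Argonaute protein, base-pairs with the target mRNA and leads to its cleavage. A REVERSIR is an oligonucleotide designed to pair with that guide strand and occupy it, so that the target mRNA is freed. In a factorial of this kind the question is whether the effect of the siRNA depends on the presence of the REVERSIR. That dependence is the interaction, the siRNA effect with the REVERSIR minus the siRNA effect without it, on the log2 scale. It is 0 where the effects of both agents add, positive where the REVERSIR takes away a decrease, and negative where it takes away an increase.

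The 12 libraries held 2217585 to 8955917 counts, and levels are given in CPM, the counts of a gene scaled to a fixed library total, after TMM scaling, a correction for differences in RNA composition. Mitochondrial ribosomal RNA took 24.3% and 24.1% of the counts in PBS replicates 1 and 2, against 1.69% to 9.13% in the other 10 libraries of the factorial. TMM factors were 0.747 to 0.758 in those PBS libraries and 0.986 to 1.07 in the other 16 libraries of the series. For the comparisons that rest on PBS, the effects on Ttr and the counts of called genes are therefore given with and without replicates 1 and 2. Leaving both out leaves 1 PBS library. Precision then falls, so a lost call does not show that an effect is absent. The 10 hepatocyte markers summed to 52700 to 56700 CPM with siRNA + TTR REVERSIR, 52200 to 57600 with TTR REVERSIR, 49400 to 54100 with siRNA and 53300 to 64000 in PBS. Of the markers of other liver cells, those of Kupffer cells and macrophages summed to 283 to 387 CPM over the 12 libraries, nearly all of it from Cd68 (mean 321 CPM). Those of stellate cells and fibroblasts summed to 125 to 166 CPM, with 133 to 142 for siRNA + TTR REVERSIR, 150 to 166 for TTR REVERSIR, 125 to 136 for siRNA and 154 to 156 for PBS, so that the 6 libraries with siRNA lay below the 6 without. Most of that sum came from Reln (reelin), whose averaged siRNA effect was −0.24 ± 0.0566 (adjusted p = 0.159, edgeR). Those of endothelium summed to 54.0 to 71.7 CPM and those of cholangiocytes to 16.5 to 22.4 CPM. No count was found for Cftr, and the means of Timd4, Krt7 and Muc1 were under 0.1 CPM. In such bulk samples, fewer cells of a type and less RNA per cell cannot be told apart.

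In Ttr the siRNA group stood apart from the other 3, and the TTR REVERSIR took most of the siRNA effect away. The gene (ENSMUSG00000061808) lies on chromosome 18 at 20823751 to 20832825, plus strand, in build NCBIM37, and is protein-coding. Its level was 1182, 1001 and 978 CPM in the libraries with siRNA + TTR REVERSIR. It was 1357, 1083 and 1355 CPM with TTR REVERSIR alone. With siRNA alone it was 220.5, 253.9 and 253.3 CPM, against 1034, 1080 and 1220 CPM in PBS. Each of the 3 siRNA libraries was thus far below each of the other 9, while siRNA + TTR REVERSIR overlapped both TTR REVERSIR and PBS. Behind these levels stood 6397 to 11349 counts per library with siRNA + TTR REVERSIR, 2382 to 9297 with TTR REVERSIR, 1088 to 2166 with siRNA and 4795 to 5213 in PBS.

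**Figure D1:**
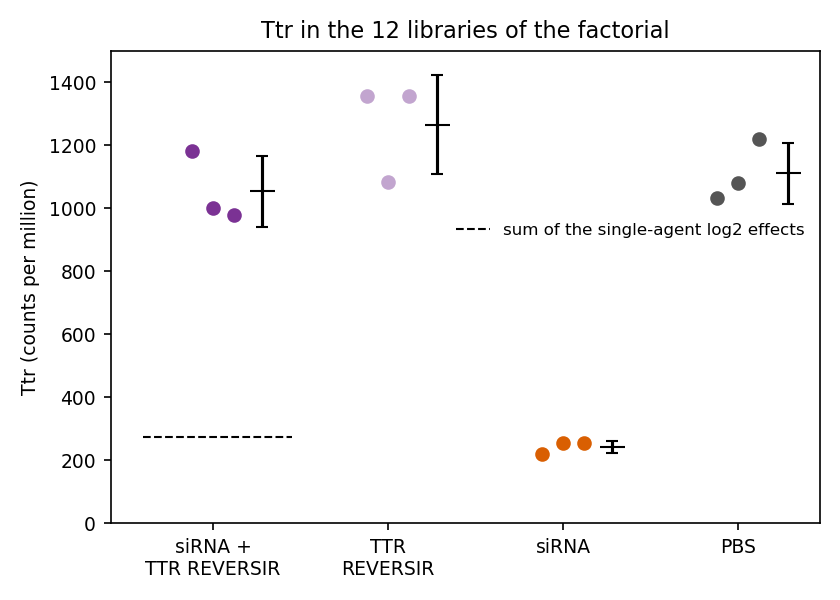
Ttr level (CPM after TMM scaling, y axis from 0) in each of the 12 libraries of the factorial, by group on the x axis. Points are libraries and bars are the group mean ± SD (n = 3); the dashed line marks the 275 CPM that adding the 2 single-agent effects on the log2 scale would give for siRNA + TTR REVERSIR, whose libraries lie at 978 to 1182 CPM.

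The siRNA effect on Ttr differed with the TTR REVERSIR by 1.93 ± 0.128 on the log2 scale (SE; 95% interval 1.67 to 2.19), a factor of 3.81 (adjusted p = 1.06e-09, edgeR quasi-likelihood test with Benjamini-Hochberg adjustment over 11153 genes). Without REVERSIR the siRNA lowered Ttr by 2.19 ± 0.0938 on the log2 scale (adjusted p = 5.66e-14, edgeR), to 243 ± 19.1 CPM against 1111 ± 96.8 CPM in PBS (SD, n = 3 each), or 21.8% ± 1.72 of the PBS mean. Without PBS replicates 1 and 2 that effect was −2.32 (adjusted p = 3.52e-12, edgeR). With the REVERSIR present the siRNA effect was −0.26 ± 0.0891 (95% interval −0.45 to −0.08), with means of 1054 ± 112 CPM for siRNA + TTR REVERSIR and 1265 ± 157 CPM for TTR REVERSIR. That remaining difference had an unadjusted p of 0.00659 and an adjusted p of 1 (edgeR), and the libraries of both groups overlapped. An exact permutation test, two-sided, returned p = 0.1 for the siRNA effect without REVERSIR, the smallest p that 3 against 3 libraries allow, and p = 0.2 for the effect with it.

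Read the other way, the TTR REVERSIR raised Ttr where the siRNA was present. The change was 2.12 ± 0.0934 on the log2 scale, or 4.34-fold (adjusted p = 1.17e-13, edgeR; exact permutation p = 0.1). Where no siRNA was present the REVERSIR effect was 0.19 ± 0.0892 (unadjusted p = 0.0454, adjusted p = 0.294, edgeR; exact permutation p = 0.2), and TTR REVERSIR replicate 2, at 1083 CPM, lay within the range of PBS. Without PBS replicates 1 and 2 this effect was 0.060 (adjusted p = 1, edgeR). Scaled by library totals alone, in place of TMM and with all libraries, it was 0.47 with an adjusted p of 0.0254 (edgeR), and the median effect of all genes was then 0.31.

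The departure from additivity was large on both scales. Adding the log2 effects of each agent alone would put siRNA + TTR REVERSIR at 275 CPM, and the observed mean of 1054 CPM was 3.82 times that. In CPM, the difference between siRNA and PBS was −869, and the difference between siRNA + TTR REVERSIR and TTR REVERSIR was −211. The difference between these was 657 CPM. With the REVERSIR the siRNA effect was thus smaller by 87.9% on the log2 scale and by 75.7% in CPM. Relative to the TTR REVERSIR mean, siRNA + TTR REVERSIR stood at 83.3% ± 8.85, and relative to the PBS mean at 94.8% ± 10.1 (SD, n = 3).

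The control factorial with the scrambled REVERSIR showed no such dependence for Ttr. Ttr was at 226.8, 225.4 and 226.2 CPM with siRNA + scrambled REVERSIR, against 1135, 1064 and 1154 CPM with the scrambled REVERSIR alone. These groups did not overlap. The scrambled interaction was −0.11 ± 0.128 (95% interval −0.37 to 0.15; adjusted p = 0.802, edgeR), and 0.021 without PBS replicates 1 and 2. Both factorials share PBS and siRNA, so they were also compared directly, which removes those 6 libraries from the contrast. The interaction with the TTR REVERSIR exceeded that with the scrambled one by 2.04 ± 0.128 (95% interval 1.78 to 2.30; adjusted p = 3.28e-10, edgeR). That value contains no PBS library.

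Across the transcriptome, Ttr was the only gene with an interaction past the threshold, 1 of 11153 tested or 0.00897%. At an unadjusted p under 0.05 there were 1513 genes (13.6%), and the second lowest adjusted p was 0.082. Ttr was likewise the only gene called in the difference between both factorials (0.00897%; 601 genes, or 5.39%, at an unadjusted p under 0.05), in the TTR REVERSIR effect with siRNA (0.00897%), in the siRNA effect averaged over both levels of the REVERSIR (0.00897%) and in the averaged REVERSIR effect (0.00897%). At an unadjusted p under 0.05 these held 667 (5.98%), 1349 (12.1%) and 1177 genes (10.6%). The averaged effects on Ttr were −1.23 for the siRNA (adjusted p = 5.45e-12, edgeR) and 1.15 for the REVERSIR (adjusted p = 2.23e-11, edgeR). With PBS replicates 1 and 2 left out they were −1.29 and 1.09, with Ttr again the only gene called in each. The count of interactions was 1 with PBS replicates 1 and 2 left out, 459 without PBS replicate 3, 69 without TTR REVERSIR replicate 2, 58 without siRNA + TTR REVERSIR replicate 1, and 1 for each other library left out. DESeq2 called 61 interactions (1.81% of the 3369 genes with an adjusted p), and 1 when PBS replicates 1 and 2 were left out. Ttr kept an interaction of 1.83 to 1.98 whichever single library was removed, and 2.06 without PBS replicates 1 and 2 (adjusted p = 7.31e-09, edgeR).

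These data set limits on what other interactions could have been missed. The 95% interval of the interaction had a median half-width of 0.38 on the log2 scale. For 8888 genes (79.7%) the whole interval lay within a factor of 2 of no interaction, and for 5649 genes (50.7%) within a factor of 1.5. The middle 90% of estimates ran from −0.51 to 0.53.

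**Figure D2:**
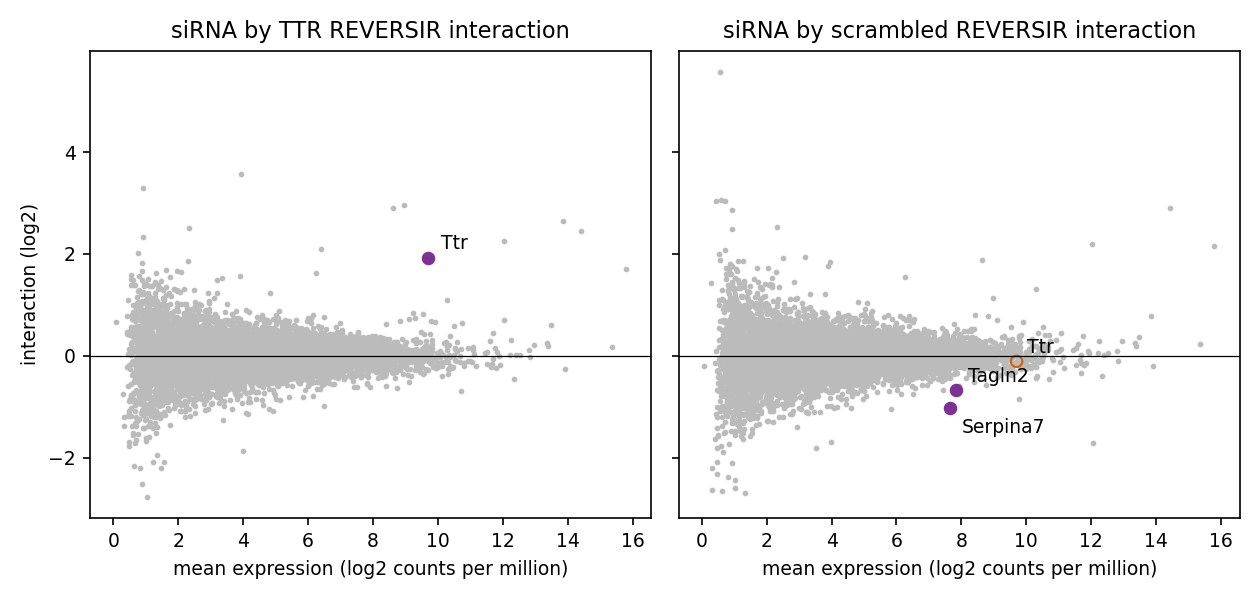
Interaction (log2, y axis) against mean expression (log2 CPM, x axis) for each of 11153 genes, with the TTR REVERSIR on the left and the scrambled REVERSIR on the right. Filled purple points are genes past an adjusted p of 0.05 (edgeR); Ttr stands at 1.93 on the left and, as an open point, at −0.11 on the right.

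Ttr did not have the largest estimate. In size, 19 genes had a larger interaction, with standard errors of 0.523 to 1.62 against 0.128 for Ttr, and their lowest adjusted p was 0.0971 (edgeR). In 5 of these the mean log2 CPM reached 8, and they are named after their values were seen. They were mt-Rnr1, the small mitochondrial ribosomal RNA (2.44 ± 1.08), Lars2, which encodes mitochondrial leucyl-tRNA synthetase (2.66 ± 1.62), and Gm15564, mmu-mir-689-2 and AC113316.1. The mean log2 CPM of Lars2 was 13.84, close to the 14.42 of mt-Rnr1. Whether the counts of Lars2 came from its mRNA was not tested. The interaction of mt-Rnr2, the large mitochondrial ribosomal RNA, was 1.70 ± 0.806 with an adjusted p of 0.357 (edgeR). Mitochondrial ribosomal RNA is the quantity in which PBS replicates 1 and 2 stood apart. Among the 19 was also Spp1 (osteopontin), a cholangiocyte marker, at −2.17 ± 0.687 and a mean of 1.13 CPM.

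The 20 genes next to Ttr by interaction p, none of them called, had another shape. For 17 of them PBS was the group farthest from the other 3, for 2 it was siRNA and for 1 TTR REVERSIR. Over all genes tested, PBS was the farthest group for 42.1%, siRNA for 20.9%, TTR REVERSIR for 19.7% and siRNA + TTR REVERSIR for 17.3%. Within PBS, replicate 3 lay nearer to the other groups than replicates 1 and 2 did in 19 of the 20 genes, at a median distance of 0.208 against 0.566 on the log2 scale. Over all genes that held for 58.8%, with median distances of 0.114 and 0.162. The 20 were chosen by a p that uses the PBS libraries, so their shares and distances are partly set by the choice.

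Rab9, which encodes a small GTPase of transport from late endosomes to the Golgi, had the smallest p of the 20. Its level was 33.9, 31.9 and 33.9 CPM with siRNA + TTR REVERSIR, 29.5, 27.3 and 31.6 with TTR REVERSIR, 30.4, 27.9 and 30.4 with siRNA, and 43.2, 51.4 and 38.1 in PBS. All 3 PBS libraries lay above the other 9, and the interaction was 0.74 ± 0.138 (adjusted p = 0.082, edgeR). Car3, a cytosolic carbonic anhydrase, showed 123.3, 125.3 and 130.8 CPM with siRNA + TTR REVERSIR, 100.4, 104.6 and 106.2 with TTR REVERSIR, 106.8, 140.0 and 141.4 with siRNA, and 171, 191 and 138.2 in PBS. PBS replicate 3 fell inside the range of siRNA, and the interaction was 0.65 ± 0.135 (adjusted p = 0.082, edgeR). Ndufv2, a complex I subunit encoded in the nucleus, had 70.3, 71.8 and 77.5 CPM with siRNA + TTR REVERSIR and 107.3, 110.8 and 71.4 CPM in PBS, where replicate 3 again sat with the treated libraries.

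Genes with negative estimates showed the mirror image. Psmb8, a subunit of the immunoproteasome, was at 80.6, 74.5 and 78.2 CPM with siRNA + TTR REVERSIR, 82.3, 86.0 and 78.7 with TTR REVERSIR, 86.7, 90.7 and 88.7 with siRNA, and 52.2, 55.9 and 72.1 in PBS. Tagln2, an actin-associated protein of the calponin family, was at 225, 206.9 and 220.6 CPM with siRNA + TTR REVERSIR, 232.4, 211 and 224.7 with TTR REVERSIR, 254.3, 260.2 and 264.1 with siRNA, and 168.2, 158.8 and 218.6 in PBS. In both genes PBS replicates 1 and 2 were lowest of all 12 libraries, and the interactions were −0.65 ± 0.128 for Psmb8 and −0.55 ± 0.116 for Tagln2 (adjusted p = 0.082 each, edgeR). Other members of the 20 with PBS as the farthest group included Mup16 (1.24), Zfp930 (1.23), mt-Co1 (0.61), BC002230 (−1.26), mt-Nd2 (0.81), Usf1 (−0.71), mt-Nd4 (0.84), Urod (−0.86), Parp10 (−0.68), Timm13 (−0.85) and Gm14403 (0.57). The farthest group need not stand apart. In Usf1, mt-Nd4 and Gm14403, for example, PBS libraries overlapped those with siRNA + TTR REVERSIR. Mean log2 CPM of Gm14403 was 5.53 in PBS, 5.48 with siRNA + TTR REVERSIR, 5.22 with TTR REVERSIR and 5.24 with siRNA. Mup16 encodes a major urinary protein of a gene cluster with near-identical copies, so that its counts are uncertain.

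**Figure D3:**
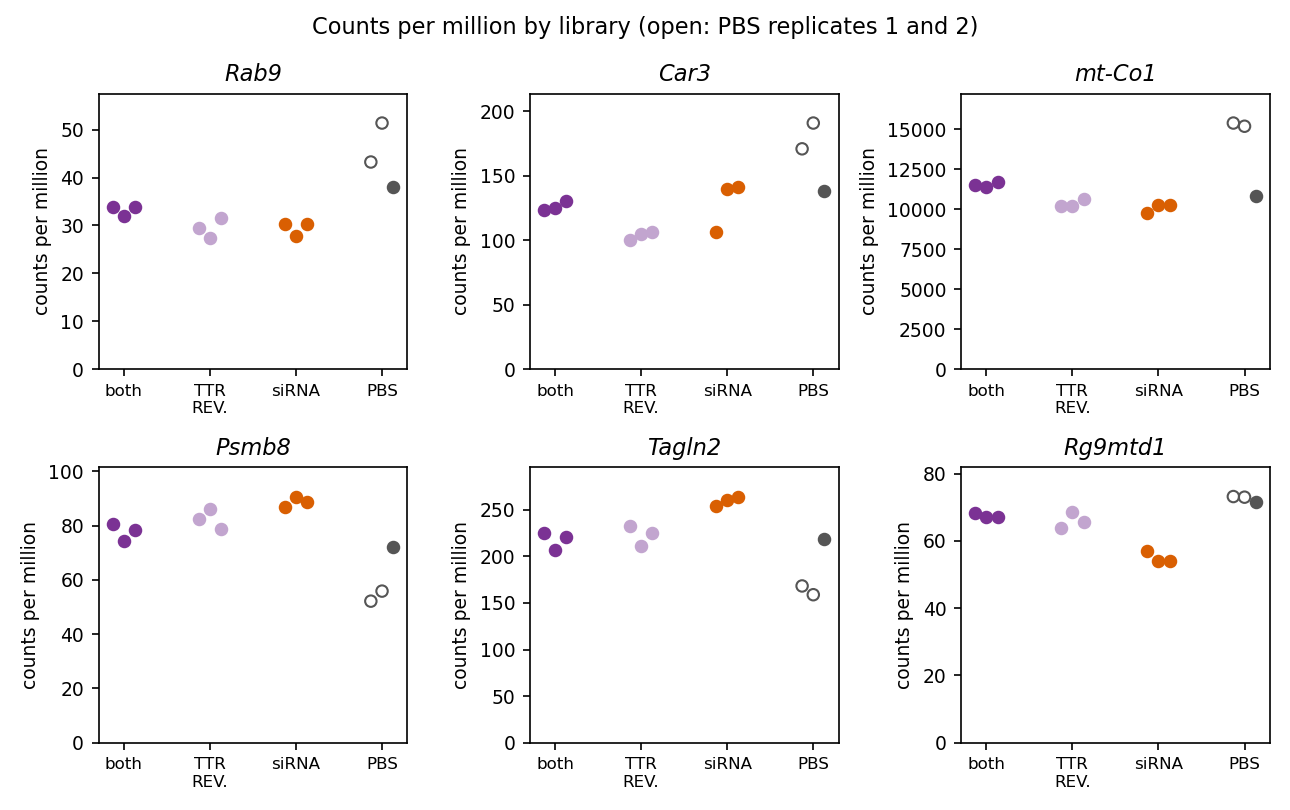
CPM (y axis, from 0) of 6 of the 20 genes with the smallest interaction p after Ttr, by group on the x axis, 1 point per library; "both" stands for siRNA + TTR REVERSIR and open points are PBS replicates 1 and 2. In Rab9, Car3, mt-Co1, Psmb8 and Tagln2 PBS replicates 1 and 2 stand apart from the other groups, while PBS replicate 3 lies nearer to them or among them, and in Rg9mtd1 the siRNA libraries are lowest.

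As in Ttr, siRNA was the farthest group in only 2 of the 20. Rg9mtd1, which encodes a subunit of mitochondrial RNase P, was at 68.2, 67.1 and 67.1 CPM with siRNA + TTR REVERSIR, 63.8, 68.7 and 65.7 with TTR REVERSIR, 57.2, 53.9 and 54.2 with siRNA, and 73.2, 73.0 and 71.6 in PBS. The 3 siRNA libraries were below the other 9, and the interaction of 0.44 ± 0.0962 had an adjusted p of 0.082 (edgeR). Hist1h4h, a histone H4 gene for which TTR REVERSIR was the farthest group, had 1.87 ± 0.407 at only 2.47 to 8.34 CPM.

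With PBS replicates 1 and 2 left out, the 20 interactions had a median size of 0.52, against 0.768 with all libraries. All 20 kept their sign and 19 were smaller, with Usf1 the exception. The 20 were chosen by a fit that held PBS replicates 1 and 2, so smaller sizes without them are partly set by the choice. Of the 459 genes called without PBS replicate 3, 457 were among the genes tested with all libraries. PBS was the farthest group in 378 of these and siRNA in 51, against 42.1% and 20.9% of all genes. PBS replicates 1 and 2 were the only PBS libraries in the fit that chose them and also enter the PBS means, so this shape is partly set by the choice. Of the 61 genes called by DESeq2, 44 had PBS as the farthest group and 12 had siRNA. All PBS libraries were in the fit that chose these 61, so their shape is also partly set by the choice.

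**Figure D4:**
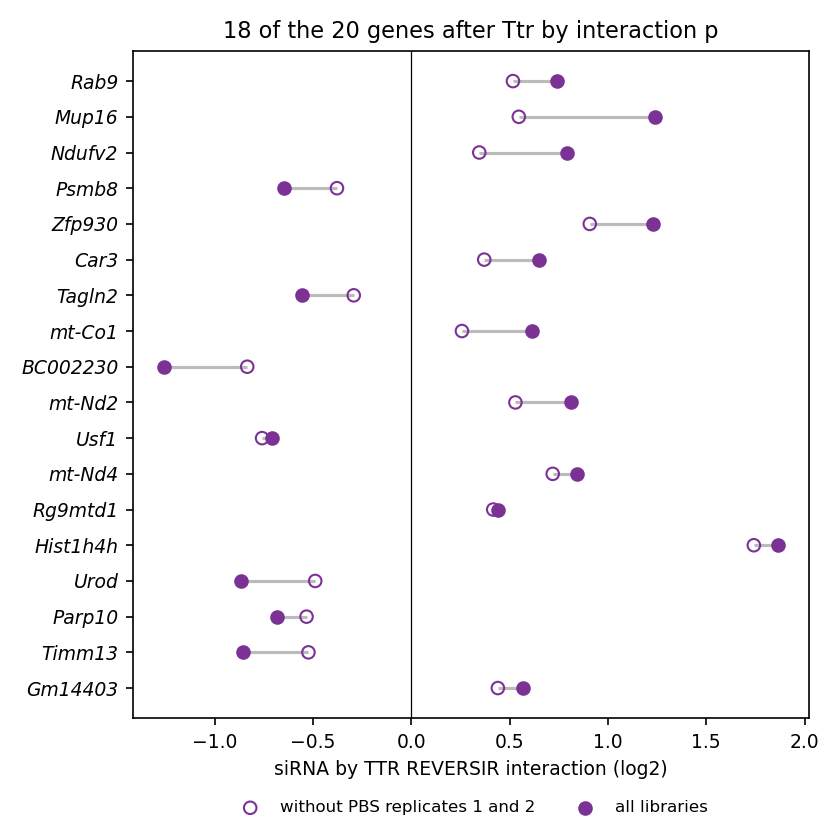
Interaction (log2, x axis) of 18 of the 20 genes with the smallest p after Ttr, 1 gene per row. Open points are the estimates without PBS replicates 1 and 2 and filled points those with all libraries; the open points are nearer to 0 in 17 of these 18 genes.

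The single-agent effects against PBS were set against comparisons made of other libraries. In siRNA against PBS 292 genes were called (2.62%), 113 higher (1.01%) and 179 lower (1.6%), at an adjusted p under 0.05 by edgeR, and 2241 (20.1%) had an unadjusted p under 0.05. The count was 1 without PBS replicate 1, 2 without PBS replicate 2, 1365 without PBS replicate 3, 1 (Ttr) without PBS replicates 1 and 2 together, and 62, 12 and 44 without siRNA replicate 1, 2 and 3. In the siRNA effect with TTR REVERSIR, 0 of the 11153 genes were called (0%; 495, or 4.44%, at an unadjusted p under 0.05), and DESeq2 called 0 as well. Of the 291 called genes other than Ttr, 124 (42.6%) had the same sign with the REVERSIR present, against 48.6% of all genes. Their median change, taken in the direction of the first effect, was −0.02 with the REVERSIR against 0.41 without it, and 8 (2.75%) kept a share of at least 0.5 of their first effect. Over all genes those figures were 0.00 against 0.15, and 27.3%. PBS was the farthest group for 249 of the 291 (85.6%) and siRNA for 42, against 42.1% and 20.9% of all genes. The 291 were chosen by siRNA against PBS, so these shares and the 0.41 are partly set by the choice. They are given as a description.

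**Figure D5:**
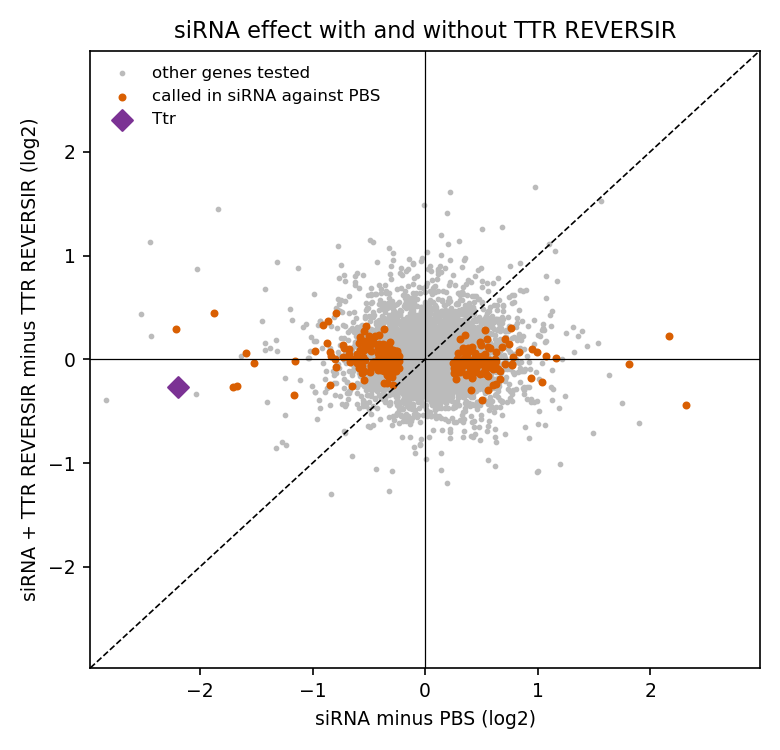
The siRNA effect with TTR REVERSIR (log2, y axis) against the siRNA effect without REVERSIR (log2, x axis) for 11153 genes; orange points are the genes called in siRNA against PBS, the diamond is Ttr and the dashed line marks equal effects. The orange points spread along the x axis and lie close to 0 on the y axis, with a median of −0.02 in the direction of their first effect, and Ttr lies at −2.19 and −0.26.

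The REVERSIR effect was followed in the same way. TTR REVERSIR against PBS called 78 genes (0.699%), 38 higher (0.341%) and 40 lower (0.359%), by edgeR, and 1825 (16.4%) had an unadjusted p under 0.05. The count was 1 without PBS replicate 1, 0 without PBS replicate 2, 978 without PBS replicate 3, 0 without both of PBS replicates 1 and 2, and 0, 375 and 1 without TTR REVERSIR replicate 1, 2 and 3. In the TTR REVERSIR effect with siRNA, where Ttr was the only gene called (0.00897% of all genes), none of the 78 was called. There 30 (38.5%) had the same sign, against 46.3% of all genes, and the median change was −0.02 against 0.58 in the first comparison. PBS was the farthest group for 77 of the 78, against 42.1% of all genes. The 78 were chosen by TTR REVERSIR against PBS, so that share and the 0.58 are partly set by the choice. They are given as a description.

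Where the mean log2 CPM was 1 or more, the called genes with the highest siRNA effects against PBS were Gm3272 (2.32), Ccdc22 (2.16), Snora68 (1.82), Gm10123 (1.17) and RP24-323I5.2 (1.07). Those with the lowest were Gm12563 (−2.22), Ttr (−2.19), Rps15-ps2 (−1.71), Gm7334 (−1.67) and Gm16869 (−1.60). With TTR REVERSIR present, the siRNA effects on these other than Ttr ran from −0.44 for Gm3272 to 0.29 for Gm12563. For TTR REVERSIR against PBS the highest were Snora68 (2.10), Gm9816 (1.70), Mup8 (1.08), BC002230 (1.00) and Alkbh2 (0.80), and the lowest AC115697.1 (−3.90), Gm12563 (−3.10), Gm16869 (−1.91), Gm15801 (−1.72) and Gm13436 (−1.45). With siRNA present these ran from −0.59 for Gm12563 to 0.24 for Snora68. Most of these are small nucleolar RNAs, pseudogenes or predicted genes, whose counts are uncertain where they share reads with other genes. Snora68 was at 28.54, 15.02 and 22.65 CPM with siRNA + TTR REVERSIR, 26.9, 12.3 and 25.6 with TTR REVERSIR, 21.28, 23.53 and 14.04 with siRNA, and 1.59, 4.51 and 11.1 in PBS. All 3 PBS libraries were below the other 9, with replicate 3 the nearest.

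Members of several pathway lists were called in siRNA against PBS. None of them was called with the REVERSIR present, where 0 of all 11153 genes were called. In siRNA against PBS the only gene called without PBS replicate 1 was Ttr, so that all the other calls named here were lost. Fewer PBS libraries also give less precision, so the loss does not show that these effects are absent. Of all genes tested, 1.01% were called higher and 1.6% lower under TMM scaling, and 34.2% higher and 0.224% lower with library totals alone. The interferon and nucleic acid sensing list (26 tested) had 4 members called higher under TMM scaling, and 18 with library totals alone, where the median of all genes was 0.33. The 4 were Parp10, an ADP-ribosyltransferase (0.54), Isg15, a ubiquitin-like modifier (0.46), Adar, an RNA-editing deaminase (0.32), and Irf7, a transcription factor (0.26). With TTR REVERSIR present the siRNA effect on these was −0.14 for Parp10, 0.03 for Isg15, −0.11 for Adar and −0.08 for Irf7, with an adjusted p of 1 for each (edgeR). The xenobiotic metabolism list (25 tested) had 4 called lower under TMM scaling, but 0 lower and 13 higher with library totals alone. The 4 were the cytochromes P450 Cyp3a11 (−0.38) and Cyp2c29 (−0.30) and the glucuronosyltransferases Ugt1a1 (−0.54) and Ugt2b1 (−0.37). With the REVERSIR their siRNA effects were 0.01 for Cyp3a11, 0.05 for Cyp2c29, −0.11 for Ugt1a1 and 0.14 for Ugt2b1. The secreted protein list (25 tested) had 3 called lower under TMM scaling, Ttr, Serpina1c and Trf, and 1 lower and 7 higher with library totals alone. Serpina1c, an alpha-1-antitrypsin gene of a cluster of close copies, was at 978, 875 and 907 CPM with siRNA + TTR REVERSIR, 895, 798 and 963 with TTR REVERSIR, 859, 889 and 910 with siRNA, and 1595, 1576 and 877 in PBS. PBS replicate 3 lay within the range of the treated groups.

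No list other than those that hold Ttr had a member with a called interaction. In the 15 tested genes of thyroid hormone and retinol carriers only Ttr was called, and the median was −0.09, against 0.00 over all genes. Alb, the most abundant plasma protein and also a carrier of thyroxine, had an interaction of 0.17 ± 0.101 (adjusted p = 0.487, edgeR). Rbp4, the partner of transthyretin in retinol transport, had 0.18 (adjusted p = 0.695, edgeR). Over all genes 13.6% had an unadjusted p under 0.05. In the 17 tested genes of the RNA interference machinery 0 were called and 4 had an unadjusted p under 0.05, with a median of 0.04. Its 4 smallest p belonged to Tsn (−0.50 ± 0.134) and Tsnax (−0.31 ± 0.134), the subunits of the C3PO nuclease, Snd1 (−0.32 ± 0.114), a Tudor-domain nuclease, and Xpo5 (−0.26 ± 0.109), the exporter of microRNA precursors. With PBS replicates 1 and 2 left out, 0 of the 17 had an unadjusted p under 0.05, against 6.05% of all genes.

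The lists closest to the handling of oligonucleotides gave no call either. The counts below stand beside the 13.6% of all genes with an interaction at an unadjusted p under 0.05. Of 25 tested genes of mRNA decapping, deadenylation and decay, 4 had an unadjusted p under 0.05 and the median was 0.13. Patl1, a decapping activator, had the smallest p of these (0.76 ± 0.2; adjusted p = 0.128, edgeR), with PBS replicates 1 and 2 at 53.5 and 49.6 CPM and the other 10 libraries at 23.7 to 39.1 CPM. Of 18 tested antisense-binding and RNase H proteins, 0 had an unadjusted p under 0.05, with a median of −0.04 and a range of −0.31 to 0.22. Of 23 tested genes of the asialoglycoprotein receptor and endolysosome, 3 had one, among them Asgr1, the major receptor subunit (−0.28 ± 0.128). In the 26 interferon genes 8 had an unadjusted p under 0.05 and 0 were called, with a median of −0.07. Medians of the other lists of nuclear genes that are not cell type markers lay between −0.12 for acute phase and inflammation and 0.10 for cell cycle. Without PBS replicates 1 and 2 the median of the interferon genes was −0.13, further from 0 than with all libraries, against −0.01 over all genes. That of the antisense-binding and RNase H proteins was then 0.097.

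The mitochondrially encoded mRNAs had a median furthest from 0 among the lists. Of 13 such genes 7 were tested and 0 were called. An unadjusted p under 0.05 was found for 6, against 13.6% of all genes, and the median interaction was 0.65. Their median siRNA effect was 0.27 with TTR REVERSIR (0 called) and −0.45 without it (4 called lower, 0 without PBS replicates 1 and 2, and 0 with library totals alone, where their median was −0.11 and that of all genes 0.33). mt-Co1, the first subunit of cytochrome c oxidase, was at 11520, 11410 and 11730 CPM with siRNA + TTR REVERSIR, 10210, 10180 and 10630 with TTR REVERSIR, 9744, 10260 and 10260 with siRNA, and 15390, 15190 and 10830 in PBS. The siRNA + TTR REVERSIR libraries lay above those with either agent alone, and PBS replicates 1 and 2 above all. mt-Nd4, a complex I subunit, was at 580.7, 654.7 and 733.3 CPM with siRNA + TTR REVERSIR, 426.1, 689 and 472.2 with TTR REVERSIR, 467.3, 461.1 and 607.9 with siRNA, and 727.6, 807.2 and 677.9 in PBS, with overlap between the groups. Without PBS replicates 1 and 2, which leaves 1 PBS library, the median interaction of the 7 genes was 0.58. The 7 genes lie on the same mitochondrial genome and may vary together, so counts among them are not counts of independent genes. In the difference between both factorials, which contains no PBS library, their median was 0.36 and 0 were called. There 3 had an unadjusted p under 0.05, against 5.39% of all genes. The share of mitochondrial ribosomal RNA, highest in PBS replicates 1 and 2, was 2.05%, 4.73% and 6.69% with siRNA + TTR REVERSIR, 1.69%, 9.13% and 5.84% with TTR REVERSIR, and 8.39%, 2.07% and 4.57% with siRNA. These groups overlapped in that share. With both mitochondrial ribosomal RNAs left out of the counts, the interactions of mt-Co1, mt-Nd2 and mt-Nd4 were 0.61, 0.81 and 0.84, as with them to 2 decimals. Leaving them out hardly moves the TMM scaling of other genes. A link of these interactions to the ribosomal RNA share was thus not tested.

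Beside Ttr, another thyroxine carrier of the list, Serpina7 (thyroxine-binding globulin), had a called interaction with the scrambled REVERSIR and none with the TTR REVERSIR. It was at 181.4, 150.4 and 180.0 CPM with siRNA + TTR REVERSIR, 161.7, 207.4 and 156.2 with TTR REVERSIR, 202, 229.4 and 261.5 with siRNA, and 177.7, 161.3 and 185.8 in PBS. The siRNA libraries lay above those of PBS and of siRNA + TTR REVERSIR and overlapped those of TTR REVERSIR. With siRNA it was higher than in PBS by 0.41 ± 0.106 (adjusted p = 0.0407, edgeR), and the interaction with the TTR REVERSIR was −0.42 ± 0.15 (adjusted p = 0.226, edgeR). The difference between siRNA and PBS was not called without PBS replicates 1 and 2. With the scrambled REVERSIR it was 163.7, 168.2 and 206.8 CPM in the presence of siRNA, against 262.7, 277.8 and 281.7 CPM without. The scrambled interaction was −1.02 ± 0.15 (adjusted p = 0.00583, edgeR), and Serpina7 and Tagln2 (−0.68 ± 0.117, adjusted p = 0.0325, edgeR) were the only genes called there (2 genes, 0.0179%; 1267, or 11.4%, at an unadjusted p under 0.05). That count was 0 without PBS replicates 1 and 2, 381 without PBS replicate 3, 5 without siRNA replicate 1 or 2, 9 without scrambled REVERSIR replicate 1, and 1 without any of PBS replicate 1, PBS replicate 2, siRNA replicate 3, scrambled REVERSIR replicate 2 or 3 and siRNA + scrambled REVERSIR replicate 2. The difference between the TTR and the scrambled interaction was 0.60 ± 0.151 for Serpina7 (adjusted p = 0.889, edgeR).

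After Ttr, the 9 genes with the smallest p in the difference between both factorials all had an adjusted p of 0.889 (edgeR). Among them were Aldh1a1, a retinal dehydrogenase (0.59), Gm14420 (0.81), Hif1a, the oxygen-regulated transcription factor subunit (0.51), Hgfac, the activator of hepatocyte growth factor (−0.45), Dpysl2 (−0.81), Serpina7 (0.60), Tnip2 (0.83) and Gm13699 (−0.73). Aldh1a1 was at 168.7, 142.1 and 160.1 CPM with siRNA + TTR REVERSIR and 146.5, 139.2 and 131.6 with TTR REVERSIR, and at 153.2, 158.5 and 172.9 CPM with siRNA + scrambled REVERSIR and 198.3, 229.3 and 218.1 with scrambled REVERSIR. The scrambled REVERSIR libraries without siRNA were the highest of these 12.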

How the data were processed

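RNA-seq libraries of 18 hepatocyte samples were grouped by their titles, 3 per group. The authors deposited raw read counts per Ensembl gene for each library, unpooled, aligned with STAR to NCBIM37 per the submitters' processing notes, with no version given. No source used here gives the counting tool or strand, so genes that overlap others are uncertain. Symbols came from the annotation of that build for 37205 of 37991 identifiers. The authors' deposited DESeq2 tables were not used.

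Counts were fitted with edgeR 4.0.16 in R 4.3.3: filterByExpr by group (11153 genes), TMM scaling, 6 group means over all 18 libraries (12 residual degrees of freedom), quasi-likelihood F tests of 9 comparisons, and Benjamini-Hochberg adjustment with a threshold of 0.05. Standard errors were derived from the F statistic. Levels are CPM, with a prior count of 2 for logarithms. The fit was tested on simulated data. Alternatives were other scalings, no filter, a replicate block, DESeq2 1.42.0, fewer libraries and libraries left out.

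The comparison, the 21 gene lists and the alternatives were chosen with earlier results of these data known. Of 388 distinct symbols in the lists 339 were tested. Ttr was named in every comparison. Named beside it were the 20 next genes by interaction p, the 10 first by p in the difference of both factorials, the 5 highest and 5 lowest called genes of each effect, and up to 4 members of each list by interaction p; some of these genes are not reported here. List members called against PBS, Rbp4, mt-Rnr1, mt-Rnr2 and the 19 genes with larger estimates were chosen after their values were seen. Replicates of a group differed by a chi-square per gene of 2.24 to 98.04, so none was a copy of another.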

Additional observations from a re-analysis of the deposited data

Results flagged for a closer look

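The siRNA effect on Ttr differed between cells with and without the TTR REVERSIR by 1.93 on the log2 scale, by a test of the difference itself. The interaction with the TTR REVERSIR also differed from that with the scrambled REVERSIR, by 2.04.

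In the factorial with the scrambled REVERSIR, the siRNA effect differed with that oligonucleotide by −1.02 for Serpina7 and −0.68 for Tagln2, by the same test. Without PBS replicates 1 and 2 neither was called.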

How the results depend on the processing

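Ttr kept the direction and the call of its interaction under all 22 alternatives, at 1.66 to 2.07. With 3 libraries a group the median half-width of the interval of an interaction was 0.38, which limits what can be seen, and counts of calls against PBS rest on which PBS libraries enter. The cause of the changes below was not tested.

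Counts of called genes follow, in the order interaction, siRNA without REVERSIR, siRNA with TTR REVERSIR, TTR REVERSIR without siRNA, TTR REVERSIR with siRNA, averaged siRNA, averaged REVERSIR, scrambled interaction and difference between both factorials. By edgeR they were 1, 292, 0, 78, 1, 1, 1, 2 and 1. With no filter on low counts they were 235, 677, 35, 498, 21, 217, 197, 214 and 21. With DESeq2 they were 61, 386, 0, 155, 14, 39, 8, 41 and 1. When single libraries were left out they ran from 1 to 459, 1 to 1365, 0 to 0, 0 to 978, 1 to 2, 1 to 425, 1 to 272, 1 to 381 and 1 to 1.

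With library totals alone siRNA called 3844 genes (3819 higher) and TTR REVERSIR 2883 (2852 higher) without the other agent, and the averaged effects 2 and 5, while the median interaction of all genes was −0.31. The Ttr effect of TTR REVERSIR without siRNA became 0.47 and the PBS mean of Ttr 948 CPM. Without PBS replicates 1 and 2, siRNA without REVERSIR called 1, TTR REVERSIR without siRNA 0 and the scrambled interaction 0, and the scrambled interaction of Ttr turned to 0.021. With no filter and without PBS replicates 1 and 2, chosen after seeing the data, there were 21 interactions. With only the libraries compared, siRNA called 1 without and 1 with TTR REVERSIR, TTR REVERSIR without siRNA 0 and the scrambled interaction 1.

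Of 18 pairs of same-numbered libraries from different groups, 4 had deviations from their group means with a correlation over 0.1 (−0.148 to 0.287). For TTR REVERSIR with siRNA + TTR REVERSIR it was 0.287, 0.156 and −0.0707 in replicates 1, 2 and 3. Whether same-numbered libraries were handled together was not tested. With a replicate block the interaction count was 2, the scrambled one 4, siRNA without REVERSIR 248 and TTR REVERSIR without siRNA 55, and the other counts were as without it.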
